A study of Mus musculus with 6 samples.

Results

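The 10 genes described here stand on 2 sides of epithelial-mesenchymal transition (EMT), the loss of epithelial junctions and polarity in favour of a migratory, mesenchymal state. On one side are 3 repressors of epithelial genes, Zeb1, Zeb2 and Snai2. On the other are 7 factors of epithelial cells, the transcription factors Ovol1, Ovol2, Grhl1, Grhl2 and Elf3 and the splicing factors Esrp1 and Esrp2. They were chosen by name, with earlier results of these data known. All 10 were found among the 14254 genes of the table and passed the filter on low values. RNA was sequenced from organoids of the mouse pancreatic cancer line KPF_5.3G, grown in gel in a medium whose added factors were Noggin, R-spondin-1, gastrin, FGF-10 and EGF. The knockdown group held 3 libraries of organoids with a lentiviral short hairpin RNA against Jag1 (shJag1_3, labelled Jag1 knockdown), and the control group held 3 libraries with a control hairpin (shCtrl, labelled WT). Both groups thus carried a lentivirus, 1 line and 1 hairpin per group were used, and effects of the hairpin on other genes cannot be told apart from those of Jag1. The study asks how Jag1, a ligand of Notch receptors, bears on tumour-initiating cells in a hybrid state between both ends of EMT.

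ZEB1 and ZEB2 are zinc finger proteins that bind E-box sequences in promoters of junction genes and recruit corepressors, and SNAI2 (Slug) is a zinc finger repressor of the Snail family that acts on similar sequences. OVOL proteins repress Zeb1, and GRHL2 activates junction genes and represses Zeb1, while ZEB1 in turn represses epithelial factors, so that both sides are known to hold each other in check. ESRP proteins direct epithelial splicing of transcripts such as those of Fgfr2, Cd44 and Ctnnd1, and ELF3 is an ETS family factor of simple epithelia. Values below are normalised counts, which are read counts divided by 1 size factor per library, and log2 changes are knockdown minus control. The replicate numbers of the labels (1, 2 and 3) are used as pairs, since same-numbered libraries deviated together. Numbers 2 and 3 were little separated from each other, and the labels do not say what links same-numbered libraries.

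Promoters of 2 epithelial factors whose groups did not overlap, Elf3 and Ovol2, and of 1 that did not follow them, Grhl1, are shown because ZEB and SNAI proteins bind the E-box CACCTG. The windows run from 250 bases before to 50 bases after a start site of RefSeq (GRCm38.p6), and they read 5′ to 3′ on the strand of the gene. They lie at chr1:135258423-135258722 on the minus strand for Elf3, at chr2:144331313-144331612 on the minus strand for Ovol2 and at chr12:24572037-24572336 on the plus strand for Grhl1, the first of 2 windows of that gene. Capitals mark a CACCTG, searched on both strands (CAGGTG on the other).
Elf3: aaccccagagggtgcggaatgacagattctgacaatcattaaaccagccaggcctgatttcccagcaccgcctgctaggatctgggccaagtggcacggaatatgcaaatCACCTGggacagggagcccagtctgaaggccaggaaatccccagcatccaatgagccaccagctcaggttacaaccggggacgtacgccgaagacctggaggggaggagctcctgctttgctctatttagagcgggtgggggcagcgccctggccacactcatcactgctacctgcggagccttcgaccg
Ovol2: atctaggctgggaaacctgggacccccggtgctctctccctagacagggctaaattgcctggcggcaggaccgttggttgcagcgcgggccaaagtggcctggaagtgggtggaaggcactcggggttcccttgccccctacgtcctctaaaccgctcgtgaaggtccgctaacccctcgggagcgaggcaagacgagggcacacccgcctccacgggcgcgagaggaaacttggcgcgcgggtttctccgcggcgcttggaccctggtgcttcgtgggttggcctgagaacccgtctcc
Grhl1: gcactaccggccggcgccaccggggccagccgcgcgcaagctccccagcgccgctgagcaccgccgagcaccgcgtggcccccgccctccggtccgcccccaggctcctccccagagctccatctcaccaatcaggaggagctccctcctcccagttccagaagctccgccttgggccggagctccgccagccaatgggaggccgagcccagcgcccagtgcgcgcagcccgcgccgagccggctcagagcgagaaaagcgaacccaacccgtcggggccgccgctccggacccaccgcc
The Elf3 window held 1 CACCTG, which begins at 140 bases before the start site, and the Ovol2 and Grhl1 windows held 0. Of all 32544 different promoter windows of 300 bases in the table, 20.3% held this motif. The GRHL motif AACCNGTT, found in 2.09% of those windows, and the OVOL motif CCGTTA, found in 2.76%, were in none of the windows of Elf3, Ovol2, Grhl1 and Zeb2, the 4 members that the table holds, searched on both strands. A match is a description of letters and not a site shown to be bound.

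The libraries held from 22268997 to 35172593 reads. Both replicate 1 libraries stood apart from the other 4 in this series, so the members' values are given by pair and their calls also without those libraries. Jag1 itself had 226, 321 and 557 normalised counts in knockdowns 1, 2 and 3, against 412, 983 and 847 in controls 1, 2 and 3, so each knockdown lay below its own control while the groups overlapped (log2 change -1.03, SE 0.45, adjusted p = 0.691 in limma, and adjusted p = 0.00630 in DESeq2 with a term for the replicate number). All 7 markers of ductal epithelium were listed, among them Krt8, Krt19, Epcam and Cdh1, with a summed normalised count of 223420.4 to 580992 in knockdowns and 171440 to 238201 in controls, and their median log2 change was 0.55. Limma called 0 of the 7, and a DESeq2 fit that includes the replicate number (the replicate term) called Krt8, Krt19 and Epcam higher and 0 lower, beside 4.54% and 2.6% of all genes. Sox9 was at -0.18. Of 10 fibroblast markers 8 were not listed, including Col1a1, Col1a2 and Fap, and the other 2 summed to 28.9 to 45.5 in knockdowns and 35.6 to 44.8 in controls. Of 8 immune markers 7, including Ptprc, were not listed, and Cd68, a lysosomal protein of macrophages, had 117, 988 and 400.4 in knockdowns 1, 2 and 3, against 98.6, 136 and 111 in controls 1, 2 and 3, so its groups overlapped, with an adjusted p of 0.691 in limma and 0.00801 in that DESeq2 fit. Of 5 endothelial markers only Tek was listed, at 6.14 to 54.4 in knockdowns and 6.23 to 62.1 in controls. The share of all reads that were mitochondrial was 0.555% to 1.20% in knockdowns and 0.595% to 2.03% in controls, and each knockdown had less than its control. The part of these markers and of this share in the results below was not tested. In bulk RNA, fewer cells of a type and less RNA per cell cannot be told apart.

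The 3 repressors had lower values in the knockdown of all 3 pairs, beside 19.7% of all 13997 tested genes. By DESeq2 with the replicate term, all 3 fell, beside 2.6% of all genes called lower in that fit. In limma, the main test, none of the 3 passed, and 0.0% of all genes were called in either direction. With the replicate term none of the 3 passed in limma (adjusted p from 0.136 to 0.149) or edgeR (0.155 to 0.178). Those 2 fits each called 0.0143% of all genes higher and 0.0% lower. At an unadjusted p below 0.05 in limma, Zeb2 and Snai2 were lower, beside 2.68% of all genes, and with the replicate term all 3 were, beside 8.22%.

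Zeb1 (chromosome 18, 5591860 to 5775467, plus strand) was the most abundant of the repressors. It had 112, 349 and 416 normalised counts in knockdowns 1, 2 and 3, against 260.1, 891 and 881 in controls 1, 2 and 3. Each knockdown library was well below its own control, at 43.2%, 39.2% and 47.3% in pairs 1, 2 and 3, but the groups overlapped because control 1 lay below knockdowns 2 and 3. The log2 change was -1.21 (SE 0.66, adjusted p = 0.746) in limma, -1.21 (SE 0.17, adjusted p = 0.136) in limma with the replicate term and -1.21 (SE 0.22, adjusted p = 7.18e-06) in DESeq2 with that term. The distance between replicate 1 and the others was nearly the same in both groups for this gene: knockdown 1 stood at 0.293 times the mean of knockdowns 2 and 3, and control 1 at 0.294 times the mean of controls 2 and 3. Zeb1 thus differed between pairs mainly in level, while its log2 difference stayed between -1.35 and -1.08.

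Zeb2 (chromosome 2, 44983632 to 45117395, minus strand) encodes the closest relative of ZEB1. Its normalised counts were 18.4, 20.9 and 26.0 in knockdowns 1, 2 and 3, against 47.2, 146 and 234 in controls 1, 2 and 3. All knockdown libraries lay below all controls, as in 5.44% of all tested genes, and the knockdowns were alike while the controls spread widely. The knockdown values rest on 21, 17 and 34 reads. The log2 change was -2.39 (SE 0.60, adjusted p = 0.604) in limma and -2.47 (SE 0.51, adjusted p = 1.57e-04) in DESeq2 with the replicate term. DESeq2 without that term called Zeb2 alone among the 10 members (-2.70, SE 0.63, adjusted p = 0.00533), beside 0.722% of all genes called higher and 0.522% lower.

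Snai2 (chromosome 16, 14705852 to 14709385, plus strand) had 9.65, 6.14 and 33.6 normalised counts in knockdowns 1, 2 and 3, against 27.3, 105 and 135 in controls 1, 2 and 3. Knockdown 3 lay above control 1, so the groups overlapped, and the knockdown values rest on 11, 5 and 44 reads. The log2 change was -2.42 (SE 0.81, adjusted p = 0.637) in limma and -2.44 (SE 0.64, adjusted p = 0.00489) in DESeq2 with the replicate term.

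**Figure D1:**
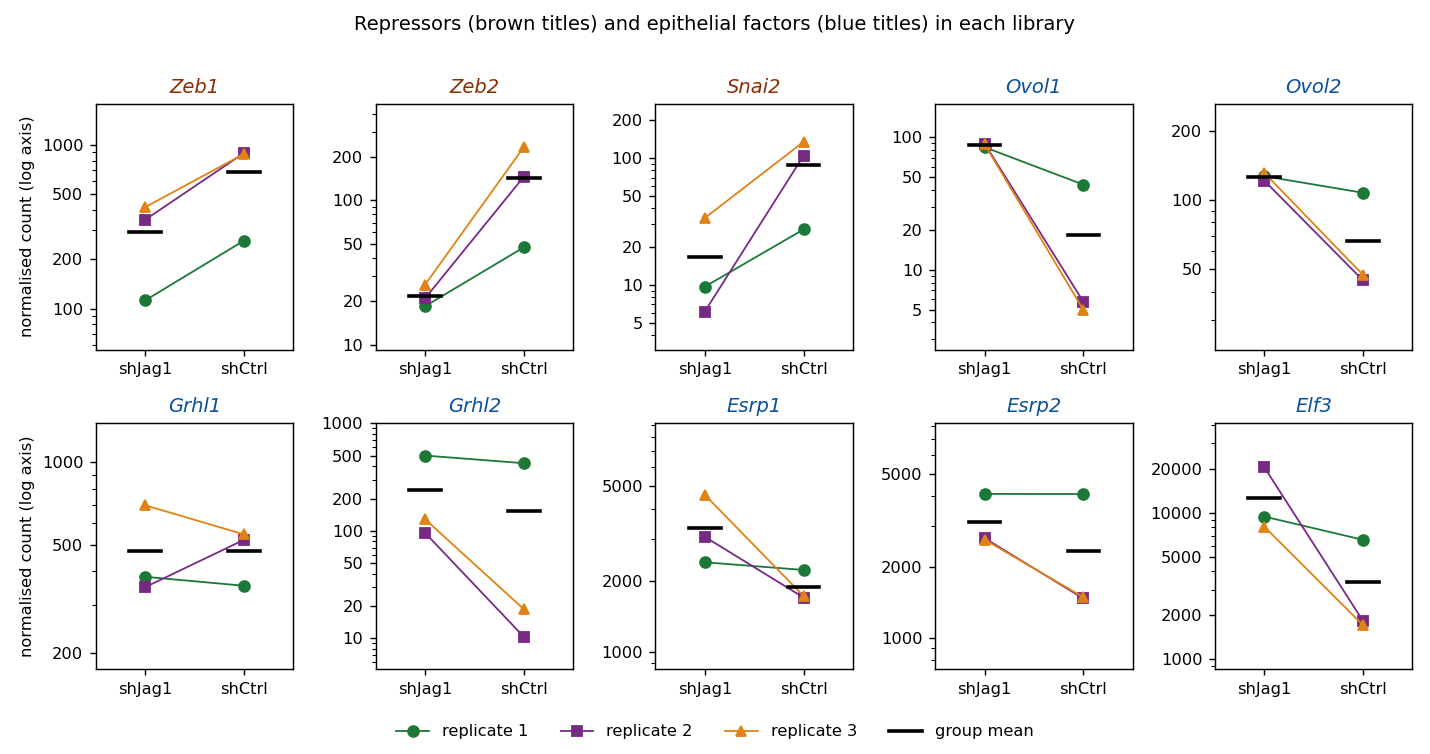
Normalised counts of the 3 repressors (brown titles) and the 7 epithelial factors (blue titles) on a log axis, with shJag1 libraries left of shCtrl libraries, lines joining libraries of the same replicate number and black bars at the group means. The Zeb1 lines are nearly parallel, with 112, 349 and 416 in the knockdowns and 260.1, 891 and 881 in the controls, whereas the knockdown values of Ovol1 lie together at 84.2 to 89.7 and its control values spread from 4.98 to 43.9.

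Of the 7 epithelial factors, 6 were higher in the knockdown of all 3 pairs, beside 22.3% of all genes, and Grhl1 was the exception. Esrp2 counts among the 6 although it was nearly equal in pair 1, at 100.1% of its control. The groups did not overlap for 4 of the 7, Ovol1, Ovol2, Esrp1 and Elf3, beside 6.29% of all genes. DESeq2 with the replicate term called 3 of the 7 higher, Ovol1, Grhl2 and Esrp1, beside 4.54% of all genes, and called none lower. Limma called 0 of the 7, and at an unadjusted p below 0.05 the same 4 with separate groups were higher, beside 4.62% of all genes, and with the replicate term all but Grhl1 were, beside 11.2%. EdgeR called 0 members, with or without the replicate term. The median log2 change of the 7 was 1.04, and that of the 3 repressors was -2.39, beside a median of 0.0027 over all tested genes.

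The OVOL factors were nearly constant among knockdowns. Ovol1 (chromosome 19, 5549136 to 5560646, minus strand) had 84.2, 89.7 and 88.6 normalised counts in knockdowns 1, 2 and 3, against 43.9, 5.74 and 4.98 in controls 1, 2 and 3. The coefficient of variation was 3.34% among knockdowns and 122% among controls, where control 1 stood at 8.19 times the mean of controls 2 and 3, which rest on 5 and 4 reads. Its log2 change was 2.86 (SE 0.79, adjusted p = 0.606) in limma and 2.93 (SE 0.74, adjusted p = 0.00356) in DESeq2 with the replicate term. A pseudogene on the opposite strand, Gm31166, shares 19.8% of the exon bases of Ovol1 and had 10.5 to 40.5 normalised counts in knockdowns and 11.6 to 27.6 in controls. The library kit does not mark strand, so reads of the shared stretch cannot be assigned to either gene.

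Ovol2 (chromosome 2, 144305175 to 144332146, minus strand) had 127, 122 and 131 normalised counts in knockdowns 1, 2 and 3, against 108, 44.8 and 47.3 in controls 1, 2 and 3. All knockdowns lay above all controls, and control 1 was closer to the knockdowns than to the other controls. Its fitted log2 change was 1.04 (SE 0.41, adjusted p = 0.668) in limma and 1.04 (SE 0.43, adjusted p = 0.137) in DESeq2 with the replicate term, and neither passed. An antisense transcript that was not listed, 1700108N11Rik, shares 17.0% of the exon bases of Ovol2.

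Elf3 (chromosome 1, 135253575 to 135258568, minus strand) was the most abundant member per length in each of the 6 libraries. It had 9486, 20634 and 8092 normalised counts in knockdowns 1, 2 and 3, against 6575, 1831 and 1714 in controls 1, 2 and 3. The groups did not overlap, and the knockdown stood at 144%, 1127% and 472% of its control in pairs 1, 2 and 3. Its fitted log2 change was 2.09 (SE 0.59, adjusted p = 0.606) in limma and 2.10 (SE 0.77, adjusted p = 0.0697) in DESeq2 with the replicate term, which did not pass with all pairs. Its value in pair 1 was a log2 difference of 0.53, and those of pairs 2 and 3 were 3.49 and 2.24. An antisense transcript, Gm26642, shares 7.31% of the exon bases of Elf3.

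The GRHL factors, named for the grainyhead gene of the fly, differed from each other. Grhl2 (chromosome 15, 37233036 to 37363569, plus strand) had 502, 95.8 and 128 normalised counts in knockdowns 1, 2 and 3, against 426, 10.3 and 18.7 in controls 1, 2 and 3. It followed the replicate number more than the group, since both replicate 1 libraries lay above the other 4. Within pairs the knockdown stood at 118%, 927% and 687% of its control, where controls 2 and 3 rest on 9 and 15 reads. Its fitted log2 change was 2.02 (SE 1.39, adjusted p = 0.808) in limma and 2.01 (SE 0.58, adjusted p = 0.0119) in DESeq2 with the replicate term, while DESeq2 without the term gave it no p because it marked a count as an outlier. Grhl1 (chromosome 12, 24572283 to 24617391, plus strand) had 381, 349 and 696 normalised counts in knockdowns 1, 2 and 3, against 353, 520.3 and 544 in controls 1, 2 and 3. Its groups overlapped, its log2 differences in pairs 1, 2 and 3 were 0.11, -0.57 and 0.35, and its log2 change was -0.037 in limma (SE 0.34, adjusted p = 0.992). An antisense transcript, Gm16136, shares 169 exon bases with Grhl2 and had 6.11 to 83.3 normalised counts in knockdowns and 0 to 62.1 in controls.

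Both splicing factors were abundant. Esrp1 (chromosome 4, 11331933 to 11386783, minus strand) had 2386, 3054 and 4581 normalised counts in knockdowns 1, 2 and 3, against 2215, 1696 and 1722 in controls 1, 2 and 3. The groups did not overlap, but knockdown 1 stood at only 108% of control 1. The log2 change was 0.79 (SE 0.27, adjusted p = 0.637) in limma and 0.79 (SE 0.27, adjusted p = 0.0498) in DESeq2 with the replicate term, close to the threshold of 0.05. Esrp2 (chromosome 8, 106130319 to 106136974, minus strand) had 4095, 2654 and 2617 normalised counts in knockdowns 1, 2 and 3, against 4090.3, 1469 and 1487 in controls 1, 2 and 3. It was nearly equal in pair 1, at 100.1%, and at 181% and 176% in pairs 2 and 3. Its log2 change of 0.56 did not pass in limma (SE 0.43, adjusted p = 0.828) or in DESeq2 with the replicate term (SE 0.24, adjusted p = 0.142). Nfatc3 and 1810019D21Rik, on the opposite strand, share 219 and 119 exon bases with Esrp2.

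Of the fits that left out a pair, those on pairs 2 and 3 called the most members. In limma on replicates 2 and 3 only, 6 epithelial factors (all but Grhl1) were called higher, beside 6.04% of all genes, and Zeb1 and Zeb2 lower, beside 3.57%, while Snai2 did not pass (adjusted p = 0.0644). DESeq2 with the replicate term on pairs 2 and 3 called the same 6 higher and all 3 repressors lower, beside 9.24% and 6.32% of all genes. Without pair 2 that fit called only Elf3, higher, beside 0.464% of all genes higher and 0.25% lower, and without pair 3 it called no member, beside 0.636% and 0.279%. In limma without control 1, which stood near the knockdowns, Ovol1 and Elf3 were called higher and Zeb2 lower, beside 1.5% and 0.6% of all genes, and leaving out any other single library left no member called. With spike-in scaling, which moved the median log2 change of all genes to -0.18, limma called Ovol1 higher (2.68) and Zeb2 lower (-2.56), beside 0.55% and 0.279% of all genes, and no member other than Grhl1 had the other sign in any of the fits run.

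**Figure D2:**
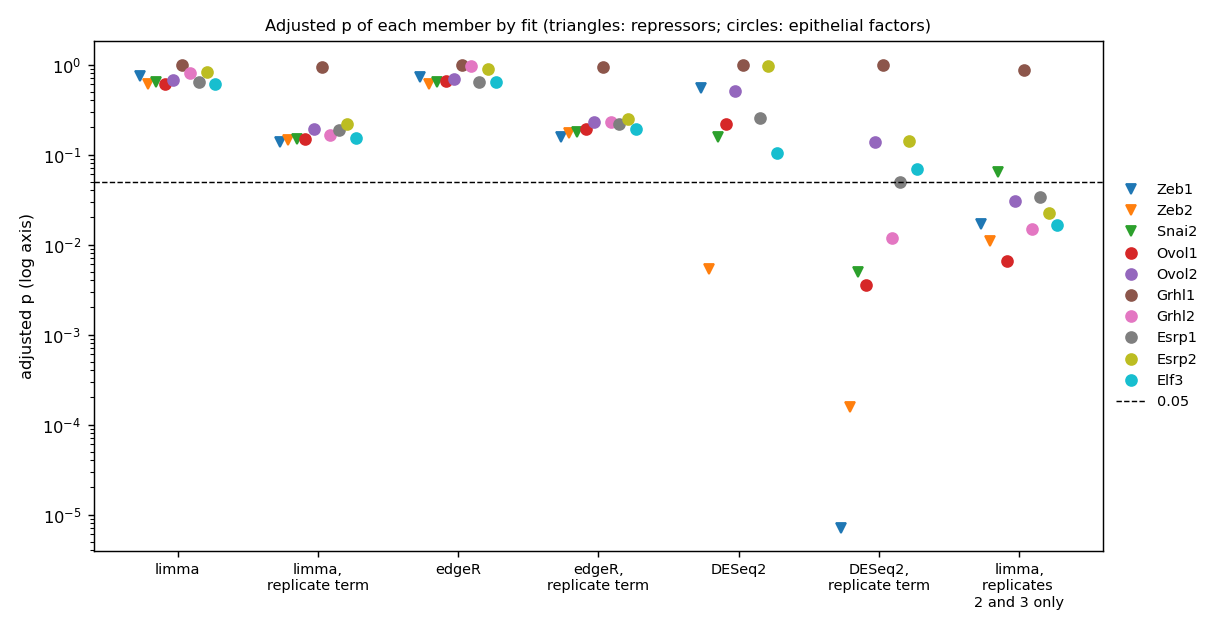
Adjusted p of each member on a log axis, by fit, with triangles for repressors, circles for epithelial factors and a dashed line at 0.05. No member lies below the line in limma or edgeR on all libraries, 6 do in DESeq2 with the replicate term and 8 in limma on replicates 2 and 3 only; Grhl2 has no value in DESeq2 without the term.

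**Figure D3:**
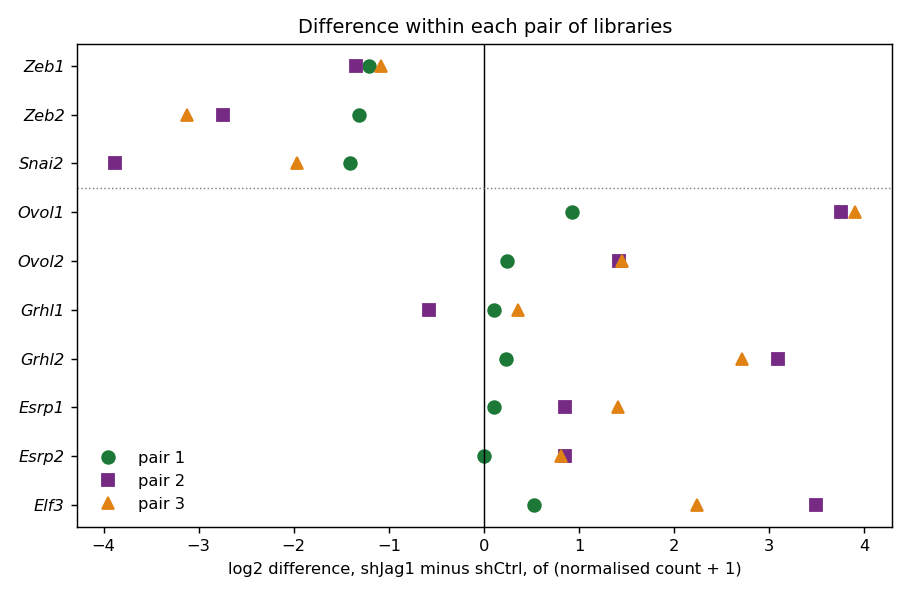
Log2 difference of the normalised count plus 1, knockdown minus control, within pairs 1, 2 and 3. All 3 repressors lie left of 0 in each pair, at -1.41 to -1.21 in pair 1, and the epithelial factors lie between 0.0016 and 0.92 in pair 1 and reach 3.91 in pair 3.

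The balance of both sides was described as the mean log2 value of the 3 repressors minus that of the 7 epithelial factors in each library, without a test, as the members were chosen with results known. This balance was -4.79, -4.15 and -3.31 in knockdowns 1, 2 and 3, against -3.17, 0.35 and 0.59 in controls 1, 2 and 3. Its sign depends on the genes' lengths and is not read, only its differences between libraries. Control 1 lay with the knockdowns rather than with controls 2 and 3. The groups did not overlap, but knockdown 3 and control 1 were nearly level. Relative to the mean of the 6 libraries, the group means were -1.67 ± 0.74 in knockdowns and 1.67 ± 2.11 in controls (SD, n = 3 each), a difference of -3.34.

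Each side behaved differently among libraries. The epithelial side, as a mean relative to all 6 libraries, was 0.79, 0.55 and 0.66 in knockdowns 1, 2 and 3, against 0.48, -1.29 and -1.19 in controls 1, 2 and 3. The knockdowns were thus close together (0.66 ± 0.12, SD, n = 3), and control 1 was near them. The repressor side was -1.59, -1.18 and -0.24 in knockdowns 1, 2 and 3, against -0.28, 1.48 and 1.82 in controls 1, 2 and 3, so knockdown 3 and control 1 were level on this side and the groups overlapped. Within pairs 1, 2 and 3 the repressor side differed by -1.31, -2.66 and -2.06 and the epithelial side by 0.31, 1.84 and 1.84. In pair 1 the repressors accounted for 81.1% of the difference of the balance, and in pairs 2 and 3 for 59.1% and 52.8%. Whether pair 1 differs from the others was not tested, since it is 1 pair.

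**Figure D4:**
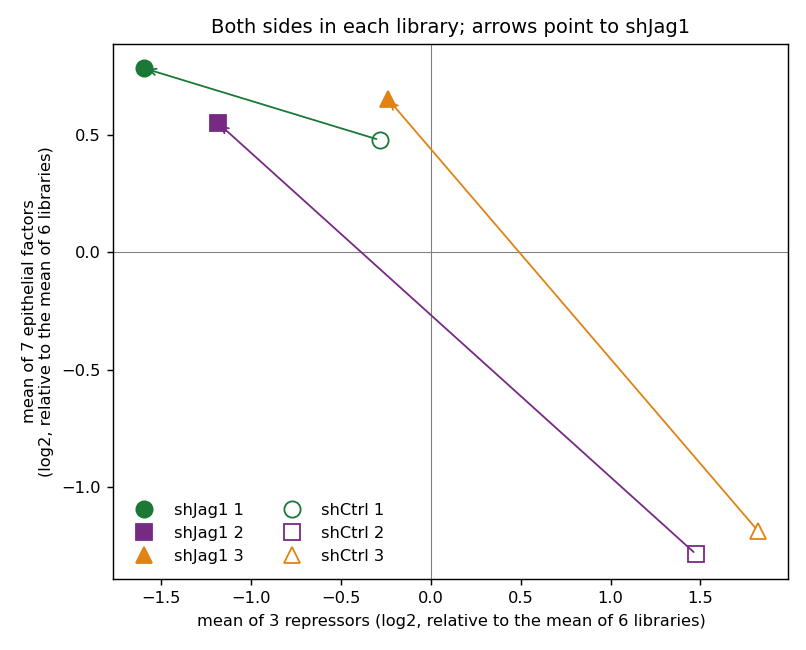
Mean log2 value of the 3 repressors (horizontal) and of the 7 epithelial factors (vertical), each relative to the mean of the 6 libraries, with filled symbols for shJag1, open symbols for shCtrl and an arrow per pair. All knockdowns and control 1 lie above 0 on the epithelial axis (0.48 to 0.79), controls 2 and 3 lie at -1.29 and -1.19, and the arrow of pair 1 is nearly horizontal.

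Ratios within a family were read per length. The length is that of all annotated exons of a gene merged, which can exceed that of a single transcript. It was 10266 bases for Zeb1 and 19942 for Zeb2. Per kilobase of exon, Zeb1 stood at 11.8, 32.5 and 31.1 times Zeb2 in knockdowns 1, 2 and 3, against 10.7, 11.9 and 7.31 times in controls 1, 2 and 3. The ratios of knockdowns 1, 2 and 3 rest on 21, 17 and 34 reads of Zeb2. Ovol2 stood at 2.49, 2.24 and 2.45 times Ovol1 per length in knockdowns 1, 2 and 3, against 4.05, 12.9 and 15.7 times in controls 1, 2 and 3. This ratio was lower in every knockdown, but in controls 2 and 3 it rests on 5 and 4 reads of Ovol1. Esrp2 stood at 2.49, 1.26 and 0.830 times Esrp1 per length in knockdowns, against 2.68, 1.26 and 1.26 times in controls, with the higher values in replicate 1 of both groups. Grhl2 stood at 0.848, 0.177 and 0.119 times Grhl1 per length in knockdowns, against 0.776, 0.0128 and 0.0221 times in controls. The ratios of controls 2 and 3 rest on 9 and 15 reads of Grhl2.

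Per kilobase of exon and averaged over the 6 libraries, the order of the members' levels was Elf3 (3633 ± 3134 normalised counts per kilobase, SD, n = 6), Esrp2 (630.3 ± 270.0), Esrp1 (414 ± 172), Grhl1 (85.6 ± 24.9), Zeb1 (47.2 ± 31.8), Ovol2 (45.8 ± 18.9), Snai2 (26.0 ± 26.6), Grhl2 (22.8 ± 24.7), Ovol1 (15.2 ± 11.6) and Zeb2 (4.12 ± 4.45). Elf3 was above Esrp2, and Esrp1 above Grhl1, in all 6 libraries, and Grhl1 was above Zeb1 in all 6. Zeb1 was above Ovol2 in 2 of the 6, and the order from there down differed between the groups. In knockdowns it was Ovol2 (60.0 ± 2.32, SD, n = 3), Zeb1 (28.5 ± 15.6), Grhl2 (28.1 ± 26.2), Ovol1 (25.1 ± 0.837), Snai2 (8.15 ± 7.40) and Zeb2 (1.09 ± 0.193). In controls it was Zeb1 (66.0 ± 35.2), Snai2 (43.9 ± 27.4), Ovol2 (31.5 ± 16.9), Grhl2 (17.6 ± 27.6), Zeb2 (7.14 ± 4.69) and Ovol1 (5.22 ± 6.38). Zeb1, Grhl2, Ovol1 and Snai2 changed order among the knockdowns, with Snai2 (16.6) above Grhl2 (14.9) in knockdown 3 only. In every control Zeb1 was above Snai2 and Ovol2 above Grhl2. The other neighbours in the order of the controls changed places between control 1 and controls 2 and 3. These orders were not tested. Esrp2 was above Esrp1 in 5 of the 6, all but knockdown 3.

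Other genes of the same network were read from lists of related factors. Of 14 other EMT transcription factors, 8 were listed and tested, and those not listed included Snai1, Twist2 and Prrx1. DESeq2 with the replicate term called 1 of the 8 higher and 0 lower, beside 4.54% and 2.6% of all genes, and the median log2 change was -0.081 (-0.0081, -0.24 and 0.00045 in pairs 1, 2 and 3). The 1 called was Snai3, a further Snail family member, which had 70.2, 167 and 159.7 normalised counts in knockdowns 1, 2 and 3, against 21.5, 50.5 and 49.8 in controls 1, 2 and 3. It stood at 326%, 331% and 320.5% of its control in pairs 1, 2 and 3, opposite in direction to Snai2 (log2 change 1.68 in limma, SE 0.51, adjusted p = 0.614, and adjusted p = 7.98e-04 in DESeq2 with the replicate term). Tcf4, Tcf3 and Foxq1, the next by their statistic, were at -0.53, -0.29 and 0.44 with adjusted p of 0.675, 0.785 and 0.807 in limma.

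Of 16 other epithelial transcription factors 11 were tested, with a median log2 change of 0.11 (0.12, 0.18 and 0.38 in pairs 1, 2 and 3). Limma called 0 of them, beside 0.0% of all genes. DESeq2 with the replicate term called 0, beside 4.54% of all genes higher and 2.6% lower. Foxa1, Klf4 and Hnf4a were at 0.78, 0.42 and 0.44, with adjusted p from 0.701 to 0.846 in limma. Of the 11 corepressors used by ZEB and SNAIL proteins, all tested, 0 were called in either fit, beside the same shares of all genes. Their median was 0.091 (-0.061, -0.012 and 0.16 in pairs 1, 2 and 3). In lists of 11 genes, 0 calls is near these shares. Bmi1, Ctbp2, Smarca4 and Sin3a led them at -0.49, 0.25, 0.23 and -0.19, with adjusted p from 0.712 to 0.832 in limma.

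Of 15 other splicing factors, DESeq2 with the replicate term called 0 higher and 1 lower, beside 4.54% and 2.6% of all genes, and the median log2 change was -0.073 (-0.27, -0.0077 and 0.15 in pairs 1, 2 and 3). The 1 was Celf2, an RNA-binding splicing factor, with 526, 467 and 531 normalised counts in knockdowns 1, 2 and 3, against 636, 1111 and 1061 in controls 1, 2 and 3 (log2 change -0.84, SE 0.26, adjusted p = 0.0242, and adjusted p = 0.626 in limma). Rbm47, Ptbp3 and Mbnl1 were at 0.51, 0.33 and -0.39, with adjusted p from 0.701 to 0.828 in limma. Of 8 genes whose transcripts ESRP proteins splice, Fgfr2 was not listed and 7 were tested, with a median of 0.066 (-0.15, 0.12 and 0.11 in pairs 1, 2 and 3), 0 called higher and 1 lower in that fit. The hyaluronan receptor gene Cd44 fell in DESeq2 with the replicate term (log2 change -0.65, SE 0.17, adjusted p = 0.00467, and adjusted p = 0.606 in limma), with 9992, 10862 and 11194 normalised counts in knockdowns 1, 2 and 3, against 13609.7, 18240.0 and 18717 in controls 1, 2 and 3. Ctnnd1, which encodes p120 catenin, Enah and Arhgef11 were at 0.32, -0.23 and 0.20, with adjusted p from 0.701 to 0.921 in limma. Gm28635, a gene on the same strand that was not listed, shares 61.2% of the exon bases of Ctnnd1. Counts per gene do not show which isoforms were made.

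Junction and protease genes are those at which both sides are known to act. Of the 14 on the list, DESeq2 with the replicate term called 12 higher and 0 lower, beside 4.54% and 2.6% of all genes. Limma called 0, and the median log2 change was 1.27. Both the list and the use of this DESeq2 fit were chosen with earlier results of these data known. The medians in pairs 1, 2 and 3 were 0.78, 1.77 and 1.34, beside 0.014, -0.0063 and 0.012 over all tested genes. The claudin gene Cldn3 had 7204, 9409.9 and 6102 normalised counts in knockdowns 1, 2 and 3, against 3286, 3991 and 3723 in controls 1, 2 and 3. Knockdown 1 thus also lay above every control. In pair 1 the mean of the epithelial factors differed by 0.31, with Ovol1 at 0.92 and Elf3 at 0.53. The claudin genes Cldn4 and Cldn7 and the protease inhibitor gene Spint1 rose by 2.81, 1.60 and 1.21 in DESeq2 with the replicate term, with adjusted p of 3.83e-10, 4.64e-06 and 1.81e-06, and with an adjusted p of 0.604 each in limma. Their differences in pair 1 were 1.40, 0.76 and 0.79, smaller than those in pairs 2 and 3. The 2 genes of the list that did not pass were Cdh1, the E-cadherin gene (log2 change 0.53, adjusted p = 0.0682 in DESeq2 with the replicate term), and Ocln, the occludin gene (-0.13, adjusted p = 0.811), which were named after their values were seen.

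**Figure D5:**
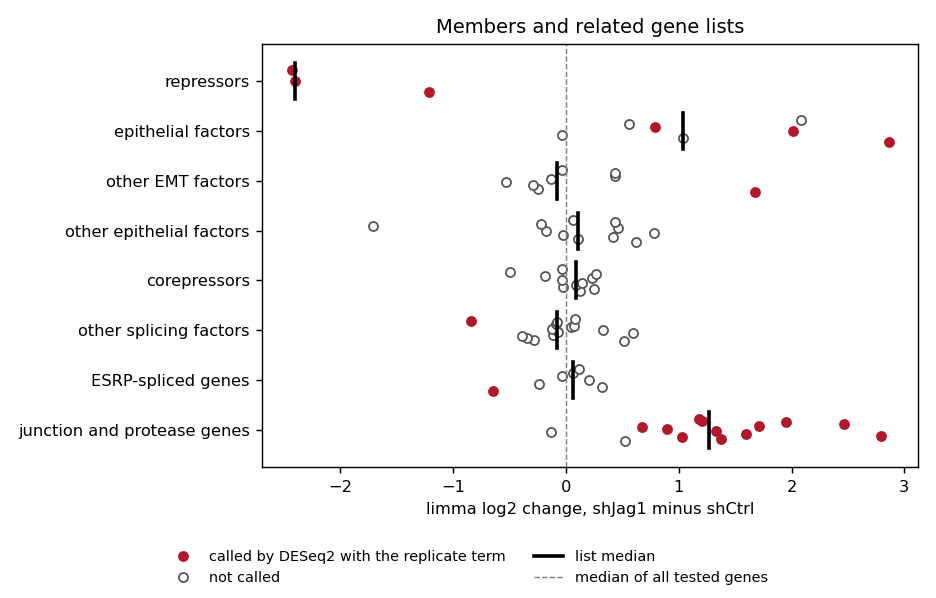
Limma log2 change, knockdown minus control, of each tested gene of the repressors, the epithelial factors and 6 related lists, filled where DESeq2 with the replicate term called the gene, with a black bar at each list's median and a dashed line at the median of all tested genes. The medians are -2.39 for repressors, 1.04 for epithelial factors and 1.27 for junction and protease genes, and those of the other lists lie between -0.081 and 0.11.

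The genes whose log2 values were most like those of Zeb1 over the 6 libraries, among 10735 genes with a mean of at least 100, were Dennd5a, Ndfip1, Ddx17 and Sinhcaf, with Pearson correlations of 0.998, 0.997, 0.996 and 0.994. Their log2 changes were smaller than that of Zeb1, at -0.52, -0.29, -0.42 and -0.57. Those most like Esrp1 were Cpeb2, Ppp2r2a, Depdc7 and Pls1, with correlations of 0.995, 0.995, 0.995 and 0.993 and log2 changes of 0.86, 0.19, 0.96 and 0.73. These correlations describe 6 libraries that share replicate numbers and group, and carry no test.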

How the data were processed

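In the deposited table the signal is the normalised count, which the authors obtained from read counts with 1 size factor for each library; the submitters' processing notes name Trimmomatic, STAR 2.5.2b, DESeq2 1.32.0 and GRCm38. The counting tool, annotation and filter are not given in the sources used here. All 6 deposited files were identical and 1 was used. Whole reads were recovered by dividing by the value of 1 read: within 0.001 of a read, 100.0% of values were whole. The table held 14302 features, of which 48 were spike-ins, left out of all tests of genes. Symbols, positions and exon lengths came from GENCODE M21 (GRCm38), and promoters from RefSeq.

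The main test was limma-trend (limma 3.58.1, R 4.3.3) on log2(normalised count + 1) for the 13997 genes with at least 10 in at least 3 libraries, without covariates, with Benjamini-Hochberg adjustment at 0.05; fold changes of low genes are understated on this scale. edgeR 4.0.16 (quasi-likelihood, TMM) and DESeq2 1.42.0 were run on the recovered reads, of which edgeR called 0 genes without and 2 with the replicate term, and DESeq2 101 higher and 73 lower without it and 636 and 364 with it. Deviations from group means correlated at r = 0.68, r = 0.57 and r = 0.44 for libraries numbered 1, 2 and 3, so the numbers were treated as pairs. Knockdown 2 with control 3 gave r = 0.38 and knockdown 3 with control 2 gave r = 0.37, so numbers 2 and 3 were little separated; what links them is not given in the labels. Members, lists and the use of DESeq2 with the replicate term were chosen with earlier results of these data known. Besides Jag1 and the members, the rule for named genes took from each list the genes called by limma and the 4 with its largest statistic, and the 4 genes most like Zeb1 and Esrp1 each; markers are named as examples. The study calls its 3 libraries per group biological replicates, and p-values measure the spread among them in 1 line. Genes that fall under this rule but are withheld are not reported here.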

Additional observations from a re-analysis of the deposited data

How the results depend on the processing

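Over 21 other settings, 9 members kept the direction of their log2 change wherever they were tested, and the difference of the balance kept its sign wherever it could be computed, with a range of -4.55 to -2.67, and moved by less than the pooled SD of 1.58 between libraries of a group; with Zeb1 alone as the repressor side, added after seeing the data, the difference of the balance was -2.54. Grhl1 changed sign from -0.037, to 0.0075 in edgeR and 0.011 in DESeq2, and ranged from -0.35 to 0.15 without 1 library in limma and from -0.23 to 0.23 without 1 pair in DESeq2 with the replicate block; the cause was not tested. Limma called 0 genes and 0 members in either direction. With the replicate block, limma and edgeR each called 2 genes higher, 0 lower and 0 members. DESeq2 called 101 genes higher and 73 lower, with 0 and 1 members, and with the replicate block 636 and 364, with 3 and 3. Without 1 pair, that fit called 65 (pair 2 left out), 89 (pair 3) and 1294 (pair 1) genes higher and 35, 39 and 884 lower, with 0 to 6 and 0 to 3 members. Spike-in scaling called 77 and 39 genes, with 1 and 1 members, and replicates 2 and 3 only called 846 and 500, with 6 and 2. Without 1 library, limma called 0 to 210 genes higher and 0 to 84 lower, with 0 to 2 and 0 to 1 members, both highest without control 1. Pseudocounts of 0.5 and 5, TMM scaling and filters at 50 or none left 0 calls; at 50, Zeb2 and Snai2 were not tested. Depth limits Snai2 in knockdown 2 (5 reads), where counting error is large. The same holds in controls 2 and 3 for Ovol1 (5 and 4 reads) and Grhl2 (9 and 15 reads).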
